A study of Mus musculus with 24 samples.

Results

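Lyve1 and 9 other genes of resident macrophages, most of them scavenger or endocytic receptors, were followed through 4 myeloid populations sorted from mouse colon and colon tumours. The 10 genes were Lyve1, Folr2, Timd4, Cd163, Mrc1, Stab1, Msr1, Marco, F13a1 and Cd209f, out of 17301 genes with values. All 10 were among the 12878 genes tested, which had a mean of at least 1 RPKM (reads scaled to gene length and to library size) in at least 1 population. Cd209f passed that filter only through LP MHCIIlow macrophages, so its comparisons with that group are tilted by the filter. Folr2, Timd4, Cd163 and Marco passed it only through macrophage groups, so comparisons of those groups with monocytes are tilted as well. The members were listed with the tumour-against-lamina-propria difference in macrophages known, and Lyve1 headed the list because its RNA was far lower in tumour macrophages. Those macrophage differences are therefore given as a description without a test. The list was also made up of macrophage genes, so their height in macrophages over monocytes was partly chosen. F13a1 encodes an enzyme and Folr2 a folate-binding protein, so the name scavenger receptor does not cover every member.

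RNA was sequenced from neutrophils, monocytes, MHCIIhi macrophages and MHCIIlow macrophages, the last pair sorted as F4/80hi cells. Each population was sorted from colon lamina propria (LP) of C57BL/6J mice (strain label C57/BL) and from tumours in the colon of Apc Min/+ animals (strain label APC/Min), which carry a truncating mutation in the tumour suppressor Apc. There were 8 groups of 3 libraries, and a library pooled cells of 13 to 15 mice, so the spread between libraries was a spread between pools. Mice of both sexes drank dextran sodium sulphate for 1 week at an age of 6 to 8 weeks and were analysed 4 weeks later, at 3 to 4 months. The methods text describes that treatment for C57BL/6J control mice as well, at a lower concentration. The labels call the LP healthy, so whether these LP donors were treated could not be settled. Genotype, tissue, exposure to dextran sodium sulphate and the way each tissue was dissociated changed together. They cannot be told apart in any tumour-against-LP value.

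Resident macrophages of the gut wall take up dead cells, matrix fragments and modified proteins through a set of surface receptors. LYVE1 binds hyaluronan, a sugar polymer of the matrix, and marks lymphatic endothelium as well as macrophages along vessels. TIMD4 binds phosphatidylserine on dying cells, CD163 takes up haemoglobin bound to haptoglobin, and MRC1 binds mannose-bearing glycoproteins and collagen fragments. TIMD4, FOLR2 and LYVE1 are commonly used to mark long-lived macrophages that renew locally, whereas other gut macrophages are replaced from blood monocytes.

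The promoters of 4 members are shown because these genes moved in opposite directions between LP and tumour macrophages. Timd4, Cd163 and F13a1 were lower in tumour macrophages and Marco was higher. Each sequence runs from 250 bases before to 50 bases after an annotated start in RefSeq on GRCm38.p6, read on the gene's own strand. Capitals mark matches, on either strand, to 3 short motifs of macrophage transcription factors, namely the PU.1 core GAGGAA, the Maf half-site TGCTGA and the AP-1 site TGANTCA. The windows lie at chr11:46810549-46810848 on the plus strand for Timd4, chr6:124304401-124304700 on the plus strand for Cd163, chr13:37050195-37050494 on the minus strand for F13a1 and chr1:120504975-120505274 on the minus strand for Marco.
Timd4: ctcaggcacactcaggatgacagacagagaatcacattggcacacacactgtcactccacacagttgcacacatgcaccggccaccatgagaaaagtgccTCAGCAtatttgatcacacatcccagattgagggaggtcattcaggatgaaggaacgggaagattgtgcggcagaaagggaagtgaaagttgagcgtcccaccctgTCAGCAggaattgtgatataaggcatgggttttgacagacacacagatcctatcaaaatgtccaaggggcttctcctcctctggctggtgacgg
Cd163: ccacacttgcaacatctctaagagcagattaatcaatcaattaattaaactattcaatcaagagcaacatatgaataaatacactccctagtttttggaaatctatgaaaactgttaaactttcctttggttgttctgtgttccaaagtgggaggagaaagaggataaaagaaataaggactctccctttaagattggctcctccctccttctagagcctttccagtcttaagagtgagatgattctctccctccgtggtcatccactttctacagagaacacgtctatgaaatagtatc
F13a1: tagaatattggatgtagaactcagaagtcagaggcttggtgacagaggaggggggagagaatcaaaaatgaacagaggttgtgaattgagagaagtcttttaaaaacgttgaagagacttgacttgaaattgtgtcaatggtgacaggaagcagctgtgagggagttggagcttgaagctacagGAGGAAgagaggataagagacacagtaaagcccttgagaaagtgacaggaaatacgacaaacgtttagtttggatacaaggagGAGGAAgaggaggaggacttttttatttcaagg
Marco: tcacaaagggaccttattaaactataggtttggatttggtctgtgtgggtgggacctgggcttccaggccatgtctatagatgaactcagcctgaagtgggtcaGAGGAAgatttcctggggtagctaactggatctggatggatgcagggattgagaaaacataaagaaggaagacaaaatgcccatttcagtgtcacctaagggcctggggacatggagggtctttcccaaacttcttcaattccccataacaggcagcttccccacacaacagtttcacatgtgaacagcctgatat
Timd4 had 2 Maf half-sites, F13a1 had 2 PU.1 cores in the window shown, Marco had 1 PU.1 core, and the Cd163 window held none of the 3 strings. Of the 10 windows that RefSeq gave for 8 members (Folr2 and F13a1 have 2 starts each), the PU.1 core was found in 5, against 28.3% of all 32851 promoters of this length. The Maf half-site was found in 4 of the 10, against 19.5% of all promoters, and the AP-1 site in 2, against 7.81%. A match of such short strings is a description of the letters only. Lyve1 and Msr1 had no entry in the promoter table used here.

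Library depth ran from 12838061 to 41718078 reads on genes. Markers separated macrophages and neutrophils from the other cells. The summed level of 6 macrophage markers (Adgre1, Mertk, Cx3cr1 and the 3 C1q genes) was 2880 to 6500 RPKM in the 12 macrophage libraries and 37.1 to 147 RPKM in the monocyte and neutrophil libraries. The sum of 6 neutrophil markers was at least 11400 RPKM in neutrophils and at most 148 RPKM elsewhere. Monocyte markers did not separate the labelled monocytes as clearly, with sums of 808 to 1230 RPKM in LP monocytes, 646 to 805 RPKM in LP neutrophils, 2630 to 3190 RPKM in tumour monocytes and 912 to 1280 RPKM in tumour neutrophils. LP libraries also differed from tumour libraries in RNA of other cells. The summed level of 6 fibroblast markers was 6.82 to 62.0 RPKM in LP macrophages and 0.168 to 1.16 RPKM in tumour macrophages. Dendritic cell markers summed to 9.27 to 73.5 RPKM in LP macrophages and 3.47 to 14.7 RPKM in tumour macrophages. Other lists went the other way. Epithelial markers summed to 3.99 to 17.6 RPKM in LP and 6.46 to 137 RPKM in tumour macrophages, with overlap. Erythroid markers summed to 0.111 to 0.579 RPKM in LP and 1.27 to 10.1 RPKM in tumour macrophages. In bulk RNA, fewer cells of a type and less RNA per cell cannot be told apart. Among all genes, the 991 that changed between the LP macrophage subsets held 274 higher in MHCIIlow cells, against 510 of 1291 with quantile normalization. The 188 genes whose tumour effect differed between the subsets held 146 positive differences, against 206 of 338 with quantile normalization.

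Lyve1 (chr7:110850607-110863239, minus strand, GRCm38) was read most in LP MHCIIlow macrophages, with 298 RPKM in library II, 30.2 RPKM in library III and 47.6 RPKM in library IV. LP MHCIIhi macrophages held 4.67, 2.08 and 4.28 RPKM of Lyve1 in libraries III, IV and V. LP monocytes held 1.31, 2.28 and 1.14 RPKM, and LP neutrophils 0.774, 2.09 and 3.22 RPKM. Every LP library thus held Lyve1 RNA, and the MHCIIlow libraries stood above all others. Tumour MHCIIhi macrophages had 0, 2 and 0 reads of Lyve1 in libraries I, V and VII, and tumour MHCIIlow macrophages had 6, 0 and 0 reads. Tumour monocytes had 0, 2 and 0 reads in libraries I, II and V, whereas tumour neutrophils had 16, 4 and 2 reads, or 0.495, 0.192 and 0.103 RPKM. All 12 tumour libraries were below all 12 LP libraries.

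On the deposited log2 RPKM scale, Lyve1 averaged 6.24 ± 1.75 in LP MHCIIlow macrophages (SD, n = 3), 1.79 ± 0.64 in LP MHCIIhi macrophages, 0.79 ± 1.05 in LP neutrophils and 0.59 ± 0.53 in LP monocytes. The tumour means were -2.22 ± 1.14 in neutrophils, -6.62 ± 2.73 in MHCIIlow macrophages, -7.14 ± 1.83 in monocytes and -7.33 ± 1.51 in MHCIIhi macrophages. In this order the libraries of LP MHCIIhi macrophages, neutrophils and monocytes overlapped with their neighbours, as did those of the last 3 tumour populations. A library without reads is listed at -8.20, which is set by the prior count of 0.25 reads that the scale adds.

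**Figure D1:**
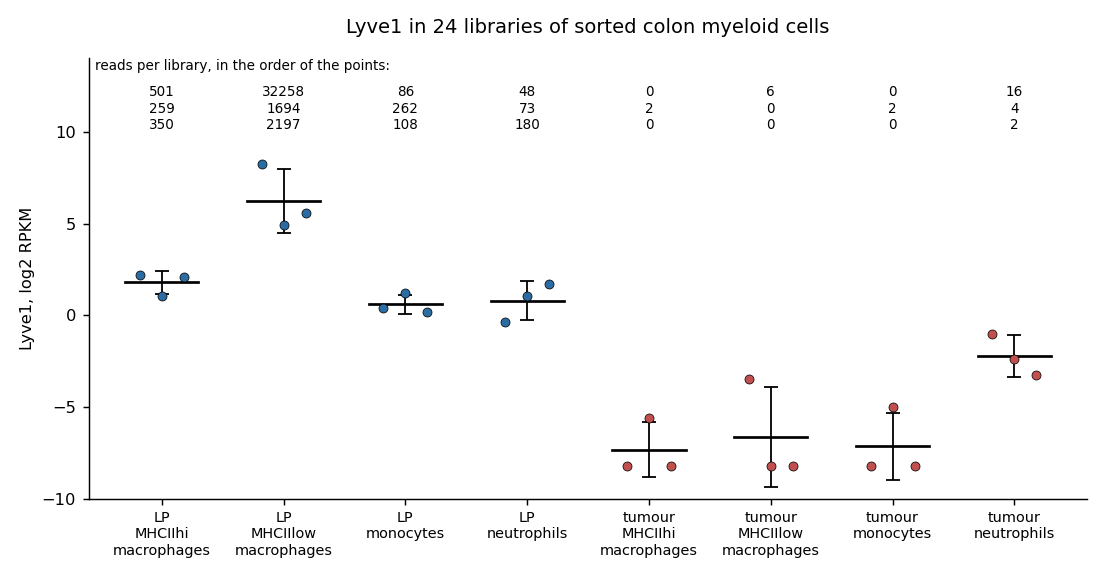
Lyve1 in the 24 libraries, as deposited log2 RPKM on the vertical axis, by population and tissue on the horizontal axis; points are libraries, lines are group means, bars are SD (n = 3) and the numbers above are reads per library. The LP MHCIIlow libraries are the highest and all 12 tumour libraries lie below all 12 LP libraries.

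The fitted log2 difference of Lyve1, tumour minus LP, was -9.12 (SE 1.24) in MHCIIhi and -12.86 (SE 1.24) in MHCIIlow macrophages, values by which the gene was chosen. These fitted values lean on the prior count and on the few tumour reads. Pooled over 3 libraries, MHCIIhi cells had 1110 Lyve1 reads in LP and 2 in tumour, a scaled ratio of 465 with a 95% exact (Clopper-Pearson) interval of 128 to 3840. MHCIIlow cells had 36149 reads in LP and 6 in tumour, a ratio of 7340 with an interval of 3370 to 20000. Without LP MHCIIlow library II, which alone gave 32258 of those reads, the ratio was 1620. The intervals cover counting error only. Of counts from 1 to 20, 65.1% were even, so both mates of many pairs may have been counted, which would make the intervals too narrow.

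Genes of other LYVE1-bearing or matrix cells were read beside Lyve1. The lymphatic endothelial list summed to 105 to 258 RPKM in LP macrophages and 31.5 to 147 RPKM in tumour macrophages, most of it Pdpn. The 5 other genes of that list (Prox1, Flt4, Ccl21a, Mmrn1 and Reln) summed to 0.39 to 2.76 RPKM in LP macrophages and 0 to 0.251 RPKM in tumour macrophages. Prox1, the defining factor of lymphatic endothelium, was at most 0.112 RPKM in LP macrophages and at most 0.0166 RPKM in the LP MHCIIlow libraries that held 30.2 to 298 RPKM of Lyve1. It reached 0.251 RPKM in tumour MHCIIlow macrophages. Ccl21a (0.39 to 2.13 RPKM), Mmrn1 (0 to 0.427 RPKM) and Reln (0 to 0.0187 RPKM) were read in LP MHCIIlow libraries and were at 0 RPKM in tumour macrophages. Flt4 was at most 0.0644 RPKM in LP MHCIIlow and 0.0549 RPKM in tumour MHCIIlow macrophages. LP MHCIIlow library II had the most Lyve1 and the lowest fibroblast sum of its group, 19.6 RPKM against 62.0 and 58.9 RPKM. The part of these cells in the Lyve1 level of LP macrophages, monocytes and neutrophils was not tested.

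**Figure D2:**
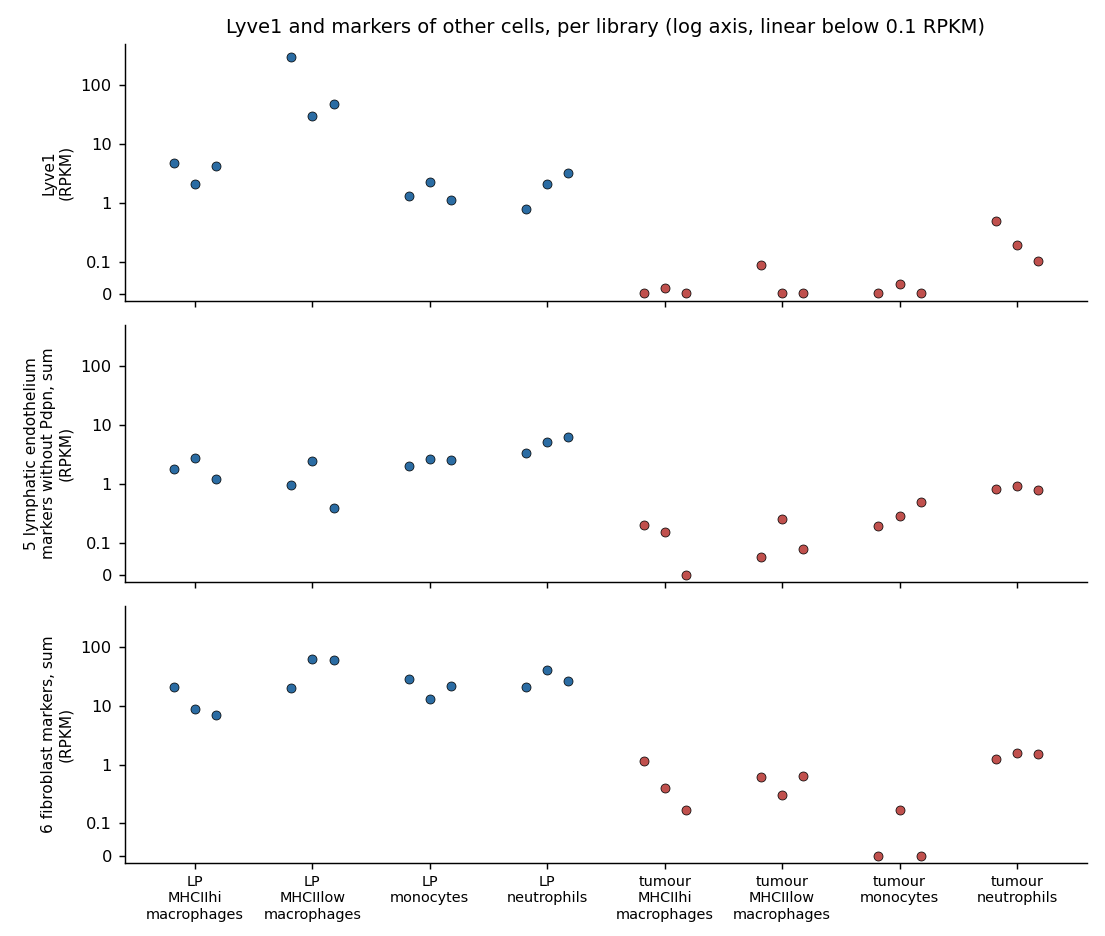
Lyve1 (top), the sum of 5 lymphatic endothelial markers without Pdpn (middle) and the sum of 6 fibroblast markers (bottom) in RPKM on a log axis that is linear below 0.1, by group, with 1 point per library. Fibroblast sums lie between 6.82 and 62.0 RPKM in LP macrophages and reach at most 1.16 RPKM in tumour macrophages.

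Haemoglobin, phosphatidylserine and folate receptors were lower in tumour macrophages but were still read there. Cd163 held 61.3, 25.7 and 37.6 RPKM in LP MHCIIlow libraries II, III and IV and 0.295, 1.7 and 1.98 RPKM in tumour MHCIIlow libraries I, V and VII. In MHCIIhi cells it held 3.6, 4.56 and 8.16 RPKM in LP and 0.327, 0.52 and 0.255 RPKM in tumours. The tumour libraries were below all LP libraries in both subsets, with log2 differences of -3.86 (SE 1.41) in MHCIIhi and -5.29 (SE 1.41) in MHCIIlow cells. Timd4 held 5.56, 6.63 and 10.7 RPKM in LP MHCIIlow and 0.177, 0.657 and 0.185 RPKM in tumour MHCIIlow macrophages. Its MHCIIhi values were 2.46, 1.5 and 2.12 RPKM in LP and 0.793, 0.191 and 0.574 RPKM in tumours. The groups again did not overlap, and the log2 differences were -2.16 (SE 1.42) and -4.72 (SE 1.42). Folr2, which encodes folate receptor beta, held 344, 226 and 311 RPKM in LP MHCIIlow and 25.6, 24.2 and 10.7 RPKM in tumour MHCIIlow macrophages. In MHCIIhi cells it held 31.2, 37.2 and 53.0 RPKM in LP and 8.76, 7.04 and 4.06 RPKM in tumours. Tumour values were lower without overlap, by -2.65 (SE 1.61) and -3.94 (SE 1.61) on the log2 scale. The libraries were not stranded, so counting could not use strand, and 63.1% of the exon bases of Folr2 overlap the antisense gene Gm10602. Gm10602 averaged -4.33 log2 RPKM in LP MHCIIlow and -0.83 in tumour MHCIIlow macrophages.

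C-type lectins differed among themselves. Mrc1, the macrophage mannose receptor, was among the most abundant members, at 189, 182 and 205 RPKM in LP MHCIIhi and 116, 155 and 173 RPKM in tumour MHCIIhi macrophages. LP MHCIIlow libraries held 273, 183 and 218 RPKM of Mrc1 and tumour MHCIIlow libraries 74.2, 85.3 and 53.5 RPKM. Tumour libraries were below LP libraries in both subsets, but the log2 differences were small for this list, -0.40 (SE 0.59) and -1.67 (SE 0.59). Cd209f, a mouse lectin of the DC-SIGN family, held 5.34, 6.63 and 15.1 RPKM in LP MHCIIlow and 1.09, 0.245 and 1.11 RPKM in tumour MHCIIlow macrophages, a log2 difference of -3.61 (SE 1.17) without overlap. Its MHCIIhi libraries overlapped, at 0.292, 0.841 and 0.778 RPKM in LP and 0.268, 0.0945 and 0.546 RPKM in tumours. Of the 51-base stretches of Cd209f transcripts, 29.5% also occur in Cd209g, so reads of the pair may have been split in counting.

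Stab1, Msr1 and Marco, 3 scavenger receptors of modified lipoproteins, microbes or matrix debris, went the other way. Stab1 (stabilin-1) held 27.4, 25.4 and 22.8 RPKM in LP MHCIIhi and 89.5 to 101 RPKM in the 3 tumour MHCIIhi libraries. In MHCIIlow cells it held 76.0, 55.7 and 47.4 RPKM in LP and 74.1, 107 and 95.7 RPKM in tumours. Only the MHCIIhi libraries were apart, with log2 differences of 1.94 (SE 0.25) in MHCIIhi and 0.64 (SE 0.25) in MHCIIlow cells. Msr1, the class A scavenger receptor, held 105, 85.8 and 97.1 RPKM in LP MHCIIhi and 147, 167 and 160 RPKM in tumour MHCIIhi macrophages. Its MHCIIlow values were 108, 99.5 and 106 RPKM in LP and 158, 163 and 140 RPKM in tumours. Tumour libraries were higher without overlap, by 0.72 (SE 0.34) and 0.55 (SE 0.34) on the log2 scale. Marco, another class A receptor that binds bacteria and particles, was low in LP MHCIIhi macrophages, at 0.0803, 0.0807 and 0.137 RPKM, and reached 0.573, 1.32 and 1.65 RPKM in tumours. In MHCIIlow cells it held 1.48, 2.22 and 2.15 RPKM in LP and 14.1, 15.4 and 17.3 RPKM in tumours. The tumour libraries were higher in both subsets, with log2 differences of 3.49 (SE 1.80) and 3.02 (SE 1.80).

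F13a1, the catalytic A subunit of coagulation factor XIII, held 450, 117 and 137 RPKM in LP MHCIIlow libraries II, III and IV and 15.6, 11.7 and 8.89 RPKM in tumour MHCIIlow libraries. MHCIIhi macrophages held 41.8, 41.7 and 44.7 RPKM in LP and 6.4, 4.04 and 6.5 RPKM in tumours. Tumour macrophages were lower without overlap, by -2.95 (SE 0.51) and -4.04 (SE 0.51) on the log2 scale. LP MHCIIlow library II was the highest for F13a1, as it was for Lyve1.

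Counted over the list, all 3 tumour libraries were below all 3 LP libraries for 6 of 10 members in MHCIIhi macrophages, where 22.1% of all genes tested were, and above for 3, where 20.9% were. In MHCIIlow macrophages 7 members were below, against 19.3% of all genes, and 2 above, against 22.7%. The median log2 difference of the members was -1.71 in MHCIIhi and -3.78 in MHCIIlow macrophages, beside medians of 0.00 and 0.06 over all genes. With Lyve1 in MHCIIhi cells set at its pooled ratio, these medians were -1.71 and -3.77. The members were chosen with these contrasts known, so nothing is read from the counts. Lyve1 stood far outside the other members, Cd163 had the next lowest value in both subsets, and Cd209f and Stab1 each overlapped in 1 subset.

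**Figure D3:**
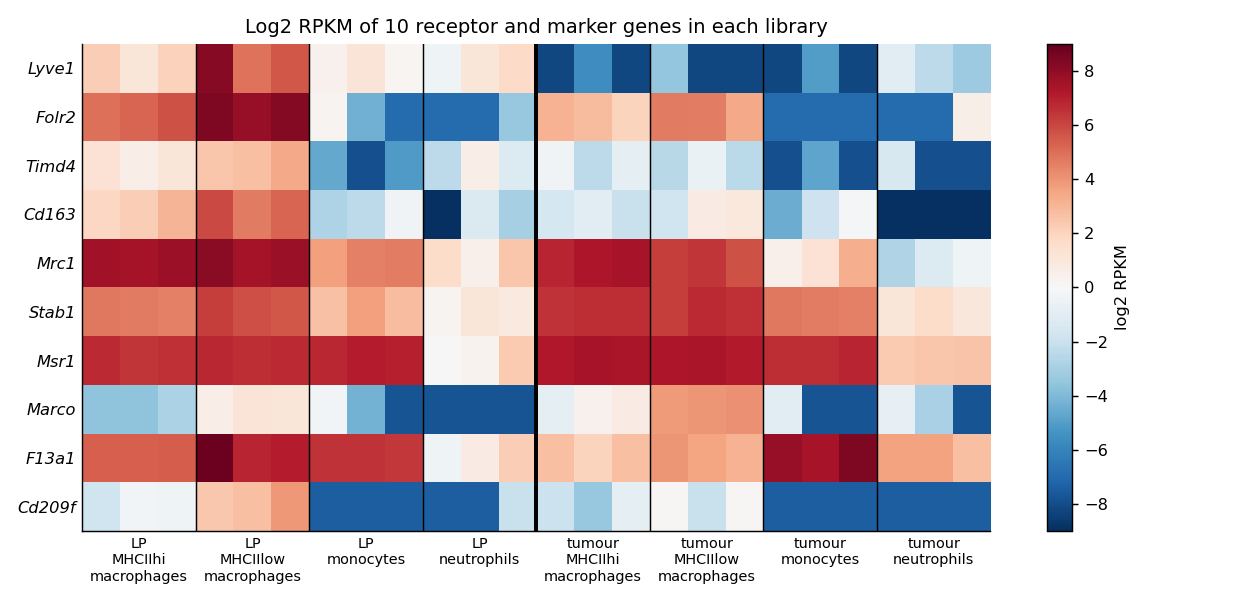
The 10 members (rows) in the 24 libraries (columns, grouped by population and tissue), with colour from blue (low) to red (high) showing deposited log2 RPKM. Lyve1, Folr2, Timd4, Cd163 and Cd209f are highest in LP MHCIIlow macrophages, whereas Stab1, Msr1 and Marco are highest in tumour macrophages.

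The difference of the tumour effects, MHCIIlow minus MHCIIhi, is built from the macrophage values by which the members were chosen, so it is given as a description. It was -1.31 (SE 0.36) for Stab1, -3.74 (SE 1.75) for Lyve1 and -0.47 (SE 2.54) for Marco, and the median over the members was -1.31, beside 0.06 over all genes. No member passed limma's threshold, where 1.46% of all genes did, and 2 (Lyve1 and Stab1) had an unadjusted p under 0.05. With voom on whole reads the count was 1 and with log2(RPKM + 1) it was 6, where the value for Marco changed sign to 1.54. Nothing is read from these counts.

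Within LP, MHCIIlow and MHCIIhi macrophages were compared to ask whether the members marked a subset in the same tissue. These libraries had also entered the choice of the members, Lyve1 first, so the p-values give no independent support for the members marking a subset. Of the 10 members, 3 passed limma's test, all higher in MHCIIlow cells, where 7.70% of all genes passed. Cd209f was among those tested only because its level in MHCIIlow cells passed the filter. Lyve1 was higher by 4.44 on the log2 scale (SE 1.24, adjusted p = 0.0309), F13a1 by 2.18 (SE 0.51, adjusted p = 0.0110) and Stab1 by 1.22 (SE 0.25, adjusted p = 0.0048). Cd209f (3.82, SE 1.17, adjusted p = 0.0517), Cd163 (2.93, SE 1.41, adjusted p = 0.246), Folr2 (2.87, SE 1.61, adjusted p = 0.344), Timd4 (1.89, SE 1.42, adjusted p = 0.528) and Marco (4.32, SE 1.80, adjusted p = 0.168) did not pass. All 3 MHCIIlow libraries were above all 3 MHCIIhi libraries for each. The share of all genes apart in this way was not counted, so nothing is read from it. Mrc1 (0.21) and Msr1 (0.12) overlapped between the subsets. The median of the members was 2.53, beside -0.03 over all genes. Marker sums of other lists differed between the subsets without overlap, in both directions. Dendritic cell markers summed to 9.27 to 16.8 RPKM in MHCIIlow and 51.3 to 73.5 RPKM in MHCIIhi libraries. Monocyte markers summed to 3.37 to 10.2 and 17.4 to 22.1 RPKM, and blood endothelial markers to 2.34 to 8.51 and 16.5 to 19.6 RPKM. In MHCIIhi libraries most of the blood endothelial sum was Pecam1 (15.9 to 18.4 RPKM), and its other genes were at most 0.823 RPKM each. Higher in MHCIIlow libraries were epithelial (12.1 to 17.6 and 3.99 to 10.6 RPKM) and erythroid markers (0.4 to 0.579 and 0.111 to 0.193 RPKM). The lymphatic endothelial list, most of it Pdpn, was also higher (168 to 258 and 105 to 119 RPKM). The part of these cells in the differences between the subsets was not tested.

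The calls within LP depended on single libraries and on the model of spread. The call of Lyve1 was lost without any of the MHCIIhi libraries III, IV or V (adjusted p = 0.0745, 0.121 and 0.070), without MHCIIlow library II (log2 difference 3.45, adjusted p = 0.167) or IV (adjusted p = 0.0599), and in a fit of these 6 libraries alone (adjusted p = 0.0574). The call of F13a1 was lost without MHCIIlow library II (1.57, adjusted p = 0.0789), with the pool as a fixed replicate block (adjusted p = 0.107) and in the fit of 6 libraries (adjusted p = 0.0783). The call of Stab1 was lost only with the fixed replicate block (adjusted p = 0.128). In numbers of members called, 3 became 1 without MHCIIlow library II, 1 with the fixed replicate block, 6 in the fit of 6 libraries, and 8 with voom on whole reads or with log2(RPKM + 1). The share of 7.70% of all genes belongs to the main fit. Shares under these settings were not set beside the counts, so nothing is read from them. Folr2, for example, had an adjusted p of 4.39e-07 with voom. With the random replicate block Cd209f passed as well (adjusted p = 0.0409).

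**Figure D4:**
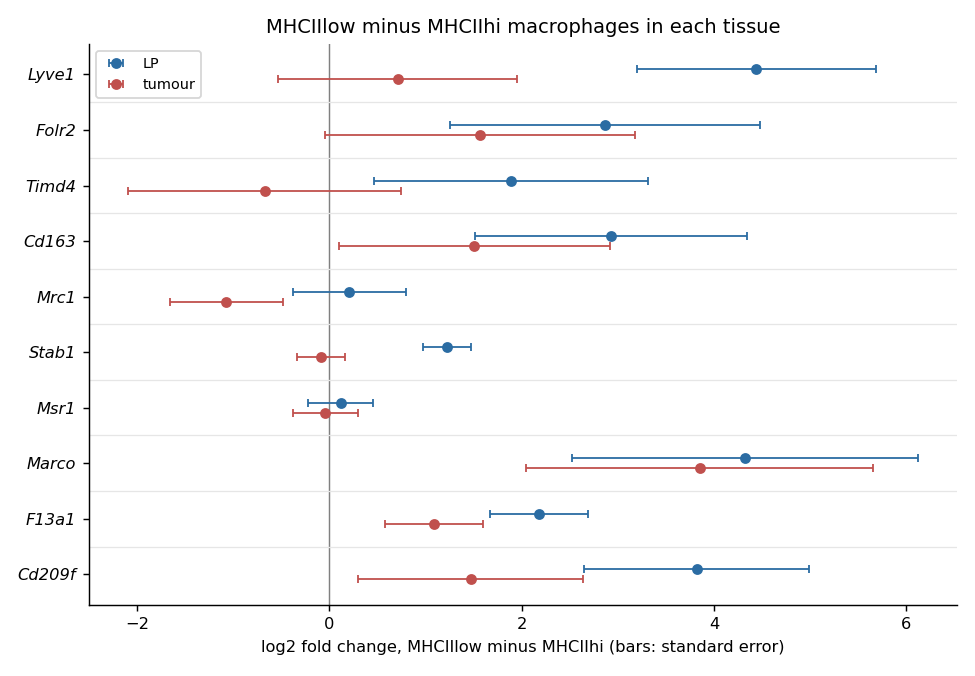
Log2 difference, MHCIIlow minus MHCIIhi macrophages, of each member in LP (blue) and in tumours (red), with bars of 1 SE. Lyve1, F13a1 and Stab1 passed limma's test in LP, and no member passed in tumours. These libraries had also entered the choice of the members, so the calls give no independent support.

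In tumours the same comparison gave 0 members called by limma, where 1.13% of all genes passed, and 2 (Marco and F13a1) had an unadjusted p under 0.05; voom called 1. Marco was higher in MHCIIlow than in MHCIIhi macrophages in every library, by 3.85 (SE 1.80, adjusted p = 0.424), as were Folr2 (1.57, SE 1.61, adjusted p = 0.871) and F13a1 (1.09, SE 0.51, adjusted p = 0.421). Mrc1 was lower in every MHCIIlow library (-1.07, SE 0.59, adjusted p = 0.560), and the other 6 members overlapped. Here too the share of all genes without overlap was not counted, so nothing is read from it. The median over the members was 0.90, or 1.06 with Lyve1 at its read ratio. Marco passed with voom (adjusted p = 0.00204), and 2 members passed with log2(RPKM + 1). The share of 1.13% of all genes belongs to the main fit, and nothing is read from the counts under other settings.

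Monocytes were not part of the choice of the members by tissue. Lyve1, given above for each library, was lower in tumour than in LP monocytes by a fitted -7.74 (SE 1.24, adjusted p = 4.31e-04 by limma). Pooled reads were 456 in LP and 2 in tumours, a ratio of 182 with a 95% exact interval of 50 to 1510. Mrc1 held 12.7, 22.9 and 24.8 RPKM in LP monocytes and 1.35, 2.5 and 9.66 RPKM in tumour monocytes, all lower, with a log2 difference of -2.60 (SE 0.59, adjusted p = 0.00773). Stab1 held 6.28, 12.6 and 6.76 RPKM in LP and 27.2, 24.1 and 22.6 RPKM in tumour monocytes. All 3 tumour libraries were above LP, with a log2 difference of 1.60 (SE 0.25, adjusted p = 4.19e-04) that passed under all 16 alternatives. These 3 of 10 members passed where 9.29% of all genes did.

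F13a1, one of the most abundant members in monocytes, held 88.7, 92.2 and 83.4 RPKM in LP and 231, 174 and 341 RPKM in tumour monocytes. Its libraries did not overlap, but the difference of 1.44 (SE 0.51) had an adjusted p of 0.0827. Msr1 differed little (-0.23, SE 0.34) and overlapped, at 97.8 to 134 RPKM over the 6 libraries. Cd163 (-0.29) and Marco (-1.38) overlapped and did not pass. Folr2 had 32, 2 and 0 reads in LP and none in tumour monocytes, at least 9.03-fold lower over the pooled reads, with overlapping libraries, and did not pass (adjusted p = 0.241). Cd209f had no read in any monocyte library and Timd4 at most 2, so no fold is given. The median over the members was -0.64, or -0.83 over the 8 with a fold. The call of Lyve1 was lost with log2(RPKM + 1) (adjusted p = 0.0938) and with voom (adjusted p = 0.142), and that of Mrc1 without tumour library I (adjusted p = 0.0579) and in a fit of these 6 libraries (adjusted p = 0.104). Fibroblast markers summed to 13.1 to 40.2 RPKM in LP monocytes and neutrophils and to 0 to 1.56 RPKM in those of tumours. B and plasma cell markers summed to 157 to 1300 and 0.16 to 20.0 RPKM. Epithelial and erythroid markers went the other way. Epithelial sums were 10.2 to 139 RPKM in LP and 78.9 to 250 RPKM in tumour monocytes and neutrophils, with overlap. Erythroid sums were 0 to 0.365 RPKM in LP and 2.16 to 18.9 RPKM in tumours. The lymphatic endothelial sum without Pdpn was 1.99 to 6.29 RPKM in LP monocytes and neutrophils. In those of tumours it was 0.192 to 0.907 RPKM. In LP neutrophil libraries III, IV and V it was 3.33, 5.21 and 6.29 RPKM, beside 0.774, 2.09 and 3.22 RPKM of Lyve1. In LP monocytes it was 1.99, 2.64 and 2.55 RPKM, beside 1.31, 2.28 and 1.14 RPKM. Within it, Prox1 was higher in tumour neutrophils (0.573 to 0.907 RPKM) than in LP neutrophils (0 to 0.239 RPKM). The part of these cells in the lower Lyve1 and Mrc1 was not tested.

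In neutrophils the members were low, and 5 passed limma's test, where 32.2% of all genes did. F13a1 rose from 0.749, 1.69 and 4.7 RPKM in LP to 12.1, 12.2 and 6.51 RPKM in tumours, without overlap (log2 difference 2.45, SE 0.51, adjusted p = 0.00103). Msr1 rose from 1.05, 1.23 and 5.1 RPKM to 5.09, 5.56 and 5.9 RPKM, with overlapping libraries (1.55, SE 0.34, adjusted p = 0.0018). Mrc1 fell from 3.2, 1.4 and 5.57 RPKM to 0.152, 0.425 and 0.758 RPKM, without overlap (-3.00, SE 0.59, adjusted p = 6.63e-04). Cd163 and Timd4 also passed as lower, on few reads. Cd163 had 0, 25 and 12 reads in LP and none in tumours, at least 5.94-fold lower against a floor of 3 reads over the group (adjusted p = 0.0173). Timd4 had 10, 44 and 20 reads in LP and 10, 0 and 0 in tumours, a pooled ratio of 3.56 with an interval of 1.83 to 7.73 (adjusted p = 0.0142). Lyve1 was lower in every tumour library (-3.02, SE 1.24, adjusted p = 0.0683), with 301 pooled reads in LP and 22 in tumours, a ratio of 6.58 (interval 4.27 to 10.7). Stab1 gave 0.50 (SE 0.25, adjusted p = 0.140), and Folr2, Marco and Cd209f, with at most 14 reads in a library, did not pass.

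All 5 neutrophil calls were lost in a fit of the 6 neutrophil libraries alone, whereas voom called 1 member, and log2(RPKM + 1), library weights or leaving out LP library IV gave 3. The call of Cd163 was lost without LP library IV (adjusted p = 0.114) or V (adjusted p = 0.0740), and that of Timd4 without LP library IV (adjusted p = 0.0647), tumour library II (adjusted p = 0.0755) or tumour library V (adjusted p = 0.0731). Scaling mattered in this cell type. The median of all genes was -0.12 on the deposited scale and 0.12 after centring each library on its median, and the genes called held 1690 higher of 4142 on the first and 2375 of 4163 on the second. The median over the members was -0.66, or 0.07 with bounds for the members near 0 reads.

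**Figure D5:**
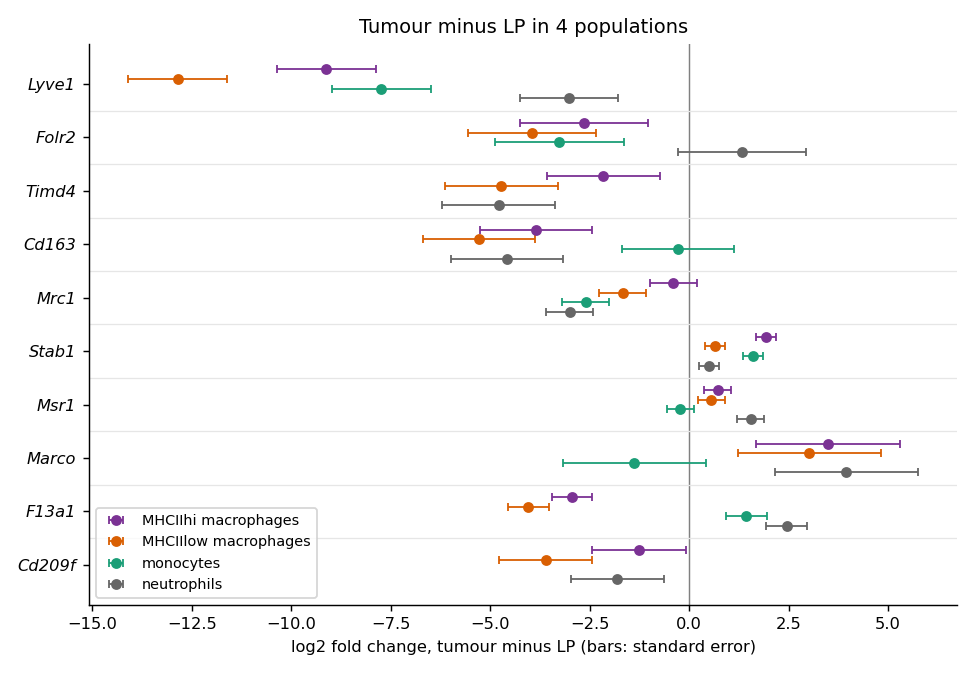
Log2 difference, tumour minus LP, of each member in the 4 populations, 1 colour each, with bars of 1 SE; the macrophage values are a description without a test. Members with at most 3 reads in every library of both groups (Timd4 and Cd209f in monocytes) are left out. F13a1 is below 0 in both macrophage subsets and above 0 in monocytes and neutrophils.

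Macrophages were also set against monocytes of the same tissue. The list was made up of macrophage genes, so calls in either tissue give no independent support for the members being macrophage genes. Folr2, Timd4, Cd163, Marco and Cd209f passed the filter only through macrophage groups, so calls of those groups over monocytes are tilted by it. In LP, 6 of 10 members were higher in MHCIIhi macrophages than in monocytes by limma. Of all 12878 genes, 20.1% passed there in either direction and 1192 were higher. In MHCIIlow macrophages 8 members were higher, where 29.5% of all genes passed in either direction and 1533 were higher. The median log2 differences were 2.47 and 5.34. Folr2 was higher by a fitted 8.97 (SE 1.61, adjusted p = 4.40e-04) and 11.84 (SE 1.61, adjusted p = 1.27e-05), Mrc1 by 3.31 (SE 0.59, adjusted p = 4.09e-04) and 3.52 (SE 0.59, adjusted p = 1.34e-04), and Stab1 by 1.63 (SE 0.25, adjusted p = 1.00e-04) and 2.85 (SE 0.25, adjusted p = 5.74e-08). The Folr2 values lean on the prior count, since LP monocytes had 32, 2 and 0 reads; over the alternatives they ran from 4.93 to 10.92 and from 7.78 to 13.79, and mean levels were 40.4 and 293 RPKM against 0.415 RPKM. Cd209f had no monocyte read and was at least 33.9-fold and 421-fold higher, the latter in the one group through which it passed the filter. Lyve1 passed in MHCIIlow cells (5.64, SE 1.24, adjusted p = 0.00164) and overlapped with monocytes in MHCIIhi cells (1.20, SE 1.24, adjusted p = 0.556). Msr1 and F13a1 did not pass in either subset. The call of Cd163 in MHCIIhi cells (4.18, SE 1.41, adjusted p = 0.0412) was lost with the fixed replicate block (adjusted p = 0.0673) and without any one of macrophage libraries III, IV and V or monocyte libraries III and IV (adjusted p from 0.0726 to 0.124). The call of Marco in MHCIIlow cells (5.04, SE 1.80, adjusted p = 0.0400) was lost with that block (adjusted p = 0.104), in a fit of the 6 libraries (adjusted p = 0.106) and without any one of macrophage libraries II, III and IV or monocyte library IV (adjusted p from 0.0735 to 0.0915), or monocyte library V (3.21, adjusted p = 0.230).

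In tumours 7 of 10 members differed between macrophages and monocytes in each subset, where 32.1% of all genes passed for MHCIIhi and 32.0% for MHCIIlow cells. The median of the members was 3.68 in MHCIIhi cells, or 3.51 over the 9 with a fold, and 3.28 in MHCIIlow cells. Folr2, Timd4, Mrc1, Stab1, Marco and Cd209f were higher in macrophages of both subsets. Folr2 had no read in tumour monocytes and was at least 201-fold higher in MHCIIhi and 627-fold higher in MHCIIlow macrophages, and Cd209f at least 11.4-fold and 30.5-fold. F13a1 was the exception, lower in macrophages than in monocytes by -5.44 (SE 0.51, adjusted p = 5.97e-08) and -4.35 (SE 0.51, adjusted p = 1.29e-06), with the calls kept under all 17 alternatives each. Lyve1 was at or near 0 reads on both sides. Msr1 gave 0.59 (SE 0.34, adjusted p = 0.206) and 0.55 (SE 0.34, adjusted p = 0.242) and passed with the fixed replicate block (adjusted p = 0.00348 and 0.00479) and with voom (adjusted p = 0.00247 and 0.00439). Cd163 gave 0.61 (SE 1.41) and 2.11 (SE 1.41) with overlapping libraries. Timd4 had 2 reads over the tumour monocytes, and the pooled ratios were 42.2 (95% exact interval 11.4 to 353) for MHCIIhi and 35.5 (9.53 to 298) for MHCIIlow cells. The calls of Timd4 (adjusted p = 0.00394 and 0.00962) were lost with the fixed replicate block (adjusted p = 0.0931 in MHCIIhi and 0.128 in MHCIIlow cells) and with log2(RPKM + 1). The call of Marco in MHCIIhi cells (5.59, SE 1.80, adjusted p = 0.0217) was lost with the block (adjusted p = 0.142), in a fit of the 6 libraries (adjusted p = 0.0927) and without macrophage library V or VII or monocyte library II or V (adjusted p from 0.0570 to 0.105). In MHCIIlow cells Marco was higher by a fitted 9.45 (SE 1.80, adjusted p = 3.78e-04) and passed under all 17 alternatives. The size of both Marco values leans on the prior count, since tumour monocytes had 30, 0 and 0 reads; in MHCIIlow cells it ran from 3.84 to 11.72 over the alternatives, and mean levels were 15.6 and 0.178 RPKM. Centring each library on its median moved the median of all genes to -0.15 and -0.19, and for MHCIIlow cells the genes called held 1745 higher of 4115 on the deposited scale and 1396 of 4356 after centring.

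Other genes of the members' pathways were counted from lists that do not hold the members. The lists were set with earlier results of these data known, so their calls in any comparison give no independent support. Across all genes, 19.5% passed the tumour-against-LP test in MHCIIhi and 23.3% in MHCIIlow macrophages. Of 31 genes of resident macrophages, 4 were higher and 3 lower in tumour MHCIIhi macrophages, and 3 higher and 7 lower in MHCIIlow macrophages. Ednrb, the endothelin receptor B, was lower in both (-4.56, SE 0.52, and -4.80, SE 0.52), as was Cbr2, a carbonyl reductase (-3.70, SE 1.14, and -5.80, SE 1.14). Cx3cr1, the fractalkine receptor of gut macrophages, was higher in both (3.75, SE 0.62, and 3.21, SE 0.62). The list median was 0.25 in MHCIIhi and -0.86 in MHCIIlow cells.

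Of 18 other scavenger receptors, 11 were tested, and 1 was higher and 2 lower in tumour MHCIIhi macrophages, with 2 higher and 3 lower in MHCIIlow macrophages. Cd36, which takes up oxidised lipoproteins and fatty acids, was lower in both subsets (-2.16, SE 0.73, and -3.79, SE 0.73). Scarb2, a lysosomal membrane protein, was higher in both (0.48, SE 0.16, and 1.40, SE 0.16). Of 10 hyaluronan genes tested, 1 was higher and 5 lower in MHCIIhi cells, and 7 were lower in MHCIIlow cells, with medians of -1.73 and -2.40. Cemip2, a cell-surface hyaluronidase, was lower by -2.61 (SE 0.23) in MHCIIlow cells, and Has1, a hyaluronan synthase, was lower in both and had no read in tumour MHCIIhi macrophages. Has1 is also a gene of matrix-making cells, and the fibroblast sums given above moved with it.

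Among the lectins next to Cd209f, 3 of 9 were tested. Cd209a was lower in both tumour subsets and Cd209g in MHCIIlow cells (-5.00, SE 1.68). Cd209a is also a dendritic cell marker, and the dendritic cell sums given above moved with it. Folate genes gave 1 lower of 10 in MHCIIhi cells and 2 higher and 1 lower in MHCIIlow cells, with Mthfd1 at 1.86 (SE 0.56) and Mthfd2 at -0.92 (SE 0.26). Of 10 genes of haem handling, Slc40a1, the iron exporter ferroportin, was the only one to pass, at 1.93 (SE 0.38) in MHCIIhi cells. Havcr2, the single TIM family gene tested, passed as higher in MHCIIlow cells (0.84). Of 3 transglutaminases, 2 were lower in MHCIIhi and 1 in MHCIIlow cells. Of 11 regulators of macrophage identity, 3 were higher and 2 lower in MHCIIhi cells, and 2 were higher and 1 lower in MHCIIlow cells. Maf was among the higher in MHCIIhi cells (1.37, SE 0.41).

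The same lists were counted between the LP subsets, where 7.70% of all genes passed. Of the resident macrophage genes, 4 were higher in MHCIIlow cells and 1 lower, with Wwp1 at 2.17 (SE 0.56, adjusted p = 0.0204), Maf, a transcription factor of resident macrophages, at 1.74 (SE 0.41, adjusted p = 0.0108), and Pf4 at 1.42 (SE 0.43, adjusted p = 0.0483). Hyal1, a lysosomal hyaluronidase, was the single hyaluronan gene to pass (1.80, SE 0.38, adjusted p = 0.00519), and Slc40a1 the single haem gene (1.25, SE 0.38, adjusted p = 0.0473). Cxcl16, which is both a chemokine and a receptor for oxidised lipoprotein, was lower in MHCIIlow cells (-1.18, SE 0.17, adjusted p = 1.70e-04), as was Havcr2 (-1.57, SE 0.14, adjusted p = 1.18e-06). In monocytes, Olr1, another receptor for oxidised lipoprotein, was higher in tumours by 3.44 (SE 0.57, adjusted p = 6.10e-04) and Hmox1, which breaks down haem, by 1.56 (SE 0.34, adjusted p = 0.00631). Of the 31 resident macrophage genes, 1 was higher and 3 lower in tumour monocytes, where 9.29% of all genes passed. Maf was among the lower (-2.67, SE 0.41, adjusted p = 2.82e-04 by limma).

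The genes whose levels ran most like those of Lyve1 over the 24 libraries were Peli1 (Pearson r 0.90), Rtn4 (0.90), Pde12 (0.88), Cavin1 (0.88), Cemip2 (0.87), Ifit1 (0.86), Ywhag (0.86), Cars (0.85), Ppp4r2 (0.85) and Peak1 (0.85), out of 10976 protein-coding genes ranked. These libraries share group, tissue, pool and scaling, and the 10 genes had higher group means in LP than in tumours in each population, except Peak1 in neutrophils. Cavin1, a coat protein of caveolae, averaged 4.20 log2 RPKM in LP MHCIIlow and -1.47 in tumour MHCIIlow macrophages. Ifit1, an interferon-induced gene, averaged 6.13 and 1.19. With Spearman correlation 7 of the 10 names were shared, but over the 12 macrophage libraries 1 of 10 was, so the ranking rested on the set of libraries. No member was among the first 10 over 24 libraries, where Timd4 came nearest at 0.49. Over the 12 macrophage libraries F13a1 reached 0.95 (rank 61 of 10976), Folr2 0.91 (rank 227), Cd163 0.88 (rank 382) and Timd4 0.85 (rank 600). Mrc1 gave 0.75 (rank 1235) and Cd209f 0.71 (rank 1449), whereas Marco gave -0.40, Stab1 -0.61 and Msr1 -0.82. The tumour-against-LP differences by which the members were chosen enter these values, so nothing is read from them.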

How the data were processed

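RNA-seq libraries (modified SMART-Seq2, not stranded, paired-end) of 4 sorted populations from LP and tumours were compared, 8 groups of 3. The authors used STAR 2.3 for alignment to GRCm38/mm10 and featureCounts 1.5 for counts per GENCODE gene, and deposited log2 RPKM values per library, without genes averaging few reads; edgeR is named in the submitters' processing notes with no role. The values gave back whole reads for 100% of entries (tolerance 0.001 reads) with a prior count of 0.25, and these were used for depth, floors and a voom alternative. Symbols matched 17190 of 17301 gene IDs.

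limma 3.58.1 (R 4.3.3) was fitted to the deposited log2 values of all 24 libraries (8 group means). The 12878 genes tested averaged at least 1 RPKM in some group, with Benjamini-Hochberg adjustment at 0.05. Fits were tested on simulated data. Tables and figures used Python 3.11.15, pandas 2.3.3, scipy 1.17.1 and matplotlib 3.10.9. The members and lists were chosen with earlier results of these data known. All 10 members are named, with the 10 protein-coding genes most correlated with Lyve1 and, per related list and comparison, up to 3 called genes of largest change whose higher group averaged at least 1 RPKM. P-values measure the spread between pools. Libraries of 1 tissue with the same number came, per the labels, from 1 donor pool: over 29 such pairs, deviations from group means correlated at -0.0661 to 0.255 (median 0.017). A random replicate block (correlation 0.048), a fixed block, other pseudocounts, filters and scalings, library weights, voom, fits of the compared groups alone and leaving out each library were the alternatives.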

Additional observations from a re-analysis of the deposited data

Results flagged for a closer look

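F13a1 had differences of opposite sign in macrophages and in the other cells. Against LP, every tumour library was lower in MHCIIhi macrophages (log2 difference -2.95) and in MHCIIlow macrophages (-4.04), and every tumour library was higher in monocytes (1.44) and in neutrophils (2.45). The monocyte value did not pass limma's test (adjusted p = 0.0827), and the neutrophil call (adjusted p = 0.00103) was lost with voom (adjusted p = 0.069) and in a fit of the 6 neutrophil libraries (adjusted p = 0.0753). The difference between the cell types was not tested, and the macrophage values had entered the choice of the gene.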

How the results depend on the processing

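Results were recomputed under other pseudocounts, filters, scalings, blocks, weights and tools and without each library. Of the recomputed counts of members and Lyve1 differences, 165 stayed near the reported value, 12 counts were higher, 7 counts were lower and 4 Lyve1 differences moved. The number of members called for LP MHCIIlow against MHCIIhi (3) was 8 with log2(RPKM + 1), 7 with log2(RPKM + 0.1), 6 in a fit of the compared libraries, 8 with voom and 1 with the fixed replicate block of pools, and 1 to 3 without single libraries. For tumour MHCIIlow against MHCIIhi (0) it was 2, 1 and, with voom, 1. For tumour against LP neutrophils (5) it was 3 with log2(RPKM + 1), 0 in a fit of the compared libraries, 3 with library weights and 1 with voom, and 3 to 5 without single libraries. For the difference of tumour effects (0) it was 6 with log2(RPKM + 1) and 1 each with log2(RPKM + 0.1), quantile normalization, library weights and voom. Marco reversed in that difference with log2(RPKM + 1), to 1.54. Shares of all genes called under these settings were not set beside the counts, so nothing is read from how the counts changed. The log2 difference of Lyve1 was -2.16 with log2(RPKM + 1) and -5.04 with log2(RPKM + 0.1) in MHCIIhi, and -6.22 and -9.22 in MHCIIlow macrophages, since larger pseudocounts shrink values near 0 reads; without single libraries it was -9.99 to -8.69 and -14.44 to -11.87. Apart from the pseudocounts, the cause of these changes was not tested. The random replicate block gave 4 members in place of 3 for the LP subsets and changed no other member's call, and the fixed block lost 7 and gained 2 of 60 single-gene calls. Depth limits the size of the Lyve1 differences, since tumour macrophages and monocytes held 0 to 6 reads per library, and of differences of Folr2, Timd4, Marco and Cd209f against groups with few or no reads.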
